A study of Mus musculus with 18 samples.

Results

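The liver X receptors (LXRs), their partner genes in cholesterol efflux and the genes that they are known to switch on were followed in RAW264.7 cells, a macrophage line derived from a mouse leukaemia. The 10 genes were chosen by name: the receptors Nr1h2 and Nr1h3, and the target genes Abca1, Abcg1, Mylip, Apoe, Srebf1, Scd2, Pltp and Lpcat3. All 10 symbols were found among the 56748 genes of the count table, and all 10 passed the filter on low counts, as did 13691 genes in total.

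RNA was sequenced from 18 cultures in 6 conditions, with 3 libraries per condition, to compare how the food antioxidant tert-butylhydroquinone (TBHQ) and 2 immune stimuli change gene expression. Control cells were left untreated. TBHQ cells received 5 µM TBHQ for 4 h. LPS cells received lipopolysaccharide, a bacterial cell wall component sensed by Toll-like receptors, at 0.1 µg/mL for 12 h, and PIC cells received Poly(I:C), a synthetic double-stranded RNA that resembles viral RNA, at 20 µg/mL for 12 h. LPS+TBHQ and PIC+TBHQ cells were kept in 5 µM TBHQ for 4 h and were then stimulated for 12 h at the same doses. The TBHQ cells were therefore harvested after 4 h and the stimulated cells 12 h later. The study lists untreated cells with the 12 h groups, so that time and treatment cannot be told apart where cells with TBHQ alone are compared with another group. Total counts ran from 14423390 to 18851626 per library, with a median of 15742337. The libraries are separate samples of each condition, and p-values measure the spread between these samples, which were cultures of 1 cell line. In bulk RNA, fewer cells that express a gene and less RNA per cell cannot be told apart.

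The libraries carried the marks of macrophages. Each of 10 macrophage genes was above the floor of 3 counts in every library, their summed level was 4979 to 6296 FPKM (fragments per kilobase of gene, scaled to library size), and Lyz2 was the most abundant. Of the macrophage genes, 1 rose and 5 fell with TBHQ, 4 rose and 4 fell with LPS, and 5 rose and 4 fell with PIC; of all tested genes, 14.2% rose and 14.8% fell with TBHQ, 24.0% and 24.1% with LPS, and 28.6% and 30.1% with PIC. By contrast, 19 genes that mark T cells, B cells, fibroblasts, epithelium, liver, fat and endothelium summed to 0.067 to 0.389 FPKM, with 14 to 17 of them at 0 in each library. None of the 19 had enough counts for a test.

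Of 6 genes known to respond to the treatments, 4 rose and 1 fell with TBHQ alone, 6 rose with LPS and 6 rose with PIC, where of all tested genes 14.2% rose and 14.8% fell with TBHQ, 24.0% rose with LPS and 28.6% rose with PIC. Hmox1, the heme-degrading enzyme, stood at 202, 187 and 193 FPKM in the control and at 797, 825 and 866 FPKM after TBHQ alone. Gclm, a subunit of the enzyme that starts glutathione synthesis, stood at 17.6, 17.6 and 18.6 FPKM in the control and at 61.7, 64.4 and 64.2 FPKM after TBHQ. The interferon-induced gene Ifit1 stood at 13.2, 10.7 and 9.43 FPKM in the control, and PIC raised it to 60.1, 62.1 and 57.3 FPKM. The cytokine gene Il1b had only 1 or 2 counts in each control library, against 53.3, 41.8 and 39.6 FPKM with LPS and 134, 142 and 109 FPKM with PIC. In each of these 5 comparisons the treated libraries lay above all control libraries.

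LXRs are nuclear receptors that sit on DNA as heterodimers with retinoid X receptors (RXRs) and are activated by oxidised forms of cholesterol. When a macrophage holds too much cholesterol, they raise the membrane transporters that pass it to lipoprotein particles, limit further uptake, and start fatty acid synthesis and desaturation. LXRs are also known to restrain inflammatory genes in macrophages, and signals from Toll-like receptors are known to lower some LXR targets.

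Stimulated cells held less mRNA of most of the LXR targets. A gene was called changed where edgeR, by its quasi-likelihood test, gave an adjusted p below 0.05; p-values were adjusted over all 13691 tested genes by the method of Benjamini and Hochberg. After LPS, 1 of the 10 genes rose and 6 fell, where 24.0% of all tested genes rose and 24.1% fell. After PIC, 3 rose and 5 fell, against 28.6% and 30.1% of all tested genes. When libraries were scaled by their total counts instead of by TMM, 0 rose and 7 fell after either stimulus. Under that scaling, of all 13691 tested genes, 2454 rose and 4558 fell with LPS, and 2379 rose and 6635 fell with PIC. With TBHQ alone, 0 rose and 2 fell (background 14.2% and 14.8%), and Srebf1 was the 1 gene higher at an unadjusted p below 0.05, while DESeq2 and limma each called 0 higher. The count of 2 became 1 without TBHQ replicate 2.

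Within the stimulated cells the counts were smaller. Between LPS+TBHQ and LPS, 1 gene rose and 1 fell, where 11.7% and 12.2% of all tested genes did, and the 2 calls became 1 without LPS replicate 1, LPS+TBHQ replicate 1 or LPS+TBHQ replicate 3. Between PIC+TBHQ and PIC, 2 rose and 0 fell, against 15.8% and 15.5%, and the count of lower genes was also 0 at an unadjusted p below 0.05, in DESeq2 and in limma. These 2 calls became 1 without PIC replicate 1, PIC replicate 2 or PIC+TBHQ replicate 2. PIC against LPS gave 2 genes higher and 1 lower, against 14.9% and 12.8% of all tested genes, and the 3 calls became 1 without LPS replicate 1 or PIC replicate 3. With total library size, 0 were higher and 4 lower in PIC than in LPS. Both rises ended, and Abcg1, Mylip and Srebf1 joined Scd2, at -0.21, -0.43 and -0.17 (log2). Of all 13691 tested genes, 985 were higher and 4373 lower in PIC than in LPS under that scaling. No gene of the 10 differed between the TBHQ effect in PIC and the TBHQ effect in LPS: edgeR called 0 higher and 0 lower, where 0.825% and 1.01% of all tested genes were called. In that test 2 genes, Abcg1 and Scd2, were higher at an unadjusted p below 0.05, and DESeq2 and limma called 0.

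The changes were moderate. Past a log2 fold change of 2 at an adjusted p below 0.01, edgeR called 0 of the 10 genes after LPS and 0 after PIC, against 1.64% and 3.57% of all tested genes; at an unadjusted p below 0.05 and any size, 8 genes passed in each comparison. The median log2 fold change of the 10 genes was -0.35 with LPS and -0.29 with PIC, where the median of all tested genes was 0.00 and -0.02 (log2). With TBHQ alone it was -0.09, in LPS+TBHQ against LPS 0.05 and in PIC+TBHQ against PIC 0.06. Comparisons with the control share the 3 control libraries, and both comparisons of PIC share the PIC libraries.

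Directions were set by the scaling for some genes. Scaling to total library size moved the median log2 fold change of all tested genes to -0.23 in PIC against control and to -0.14 in PIC against LPS. The share of calls that were higher then moved from 49.8% to 35.0% with LPS, from 48.7% to 26.4% with PIC, from 48.9% to 59.5% in LPS+TBHQ against LPS, from 50.6% to 70.3% in PIC+TBHQ against PIC and from 53.7% to 18.4% in PIC against LPS. For the difference between the TBHQ effects, the share moved from 45.0% to 76.1%, and to 30.0% in DESeq2, 35.1% with its size factors and 32.5% in limma. No gene of the 10 called in a comparison changed sign under this scaling. The scaling ended every rise of the receptors and of Abca1 with a stimulus and in PIC over LPS. Of all 13691 tested genes, 2061 were higher and 1401 lower in LPS+TBHQ than in LPS under this scaling. The counts were 3398 and 1436 for PIC+TBHQ against PIC. Counts of listed genes under this scaling are to be read against those of all tested genes under it, given here and above.

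**Figure D1:**
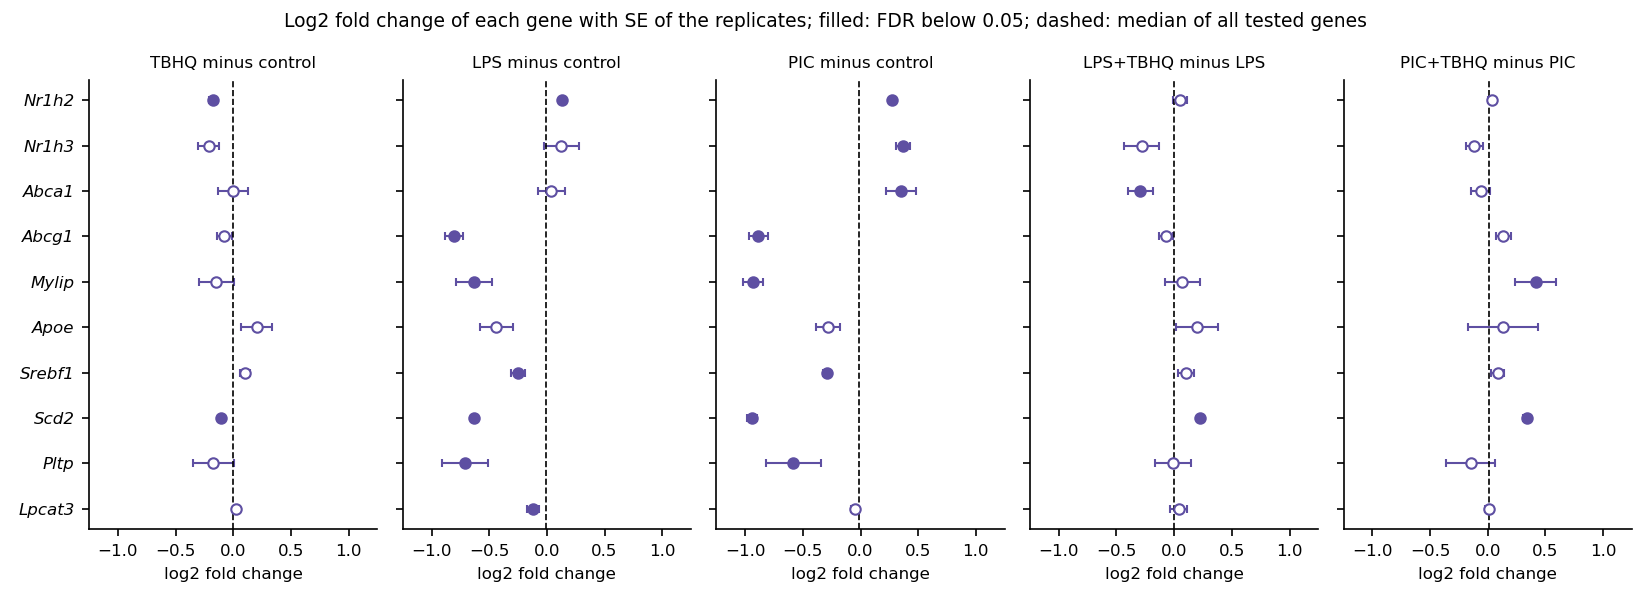
Log2 fold change of the 10 genes in 5 comparisons, 1 panel each, with bars for the standard error of the replicates (3 libraries per condition). Filled points passed an adjusted p below 0.05 and the dashed line is the median of all tested genes. Abcg1, Mylip, Srebf1, Scd2 and Pltp lie to the left with both stimuli.

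Per length, the 10 genes spanned a wide range of levels. Scd2 was the most abundant with a mean of 203 FPKM over the 18 libraries, and Abca1 was the least, at 1.74 FPKM. Within LPS, PIC and PIC+TBHQ the mean of Apoe (1.54, 1.73 and 1.89 FPKM) was below that of Abca1 (1.68, 2.10 and 2.00). Over all libraries, Srebf1 with 27.5 FPKM, Lpcat3 with 20.4, Nr1h2 with 18.95 and Abcg1 with 12.3 lay between Scd2 and Abca1. Nr1h3, Pltp, Mylip and Apoe lay between 1.90 and 4.14 FPKM. Depth followed level and length: Apoe had 40 to 95 counts per library and Mylip 72 to 183, whereas Scd2 had 10344 to 25407.

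**Figure D2:**
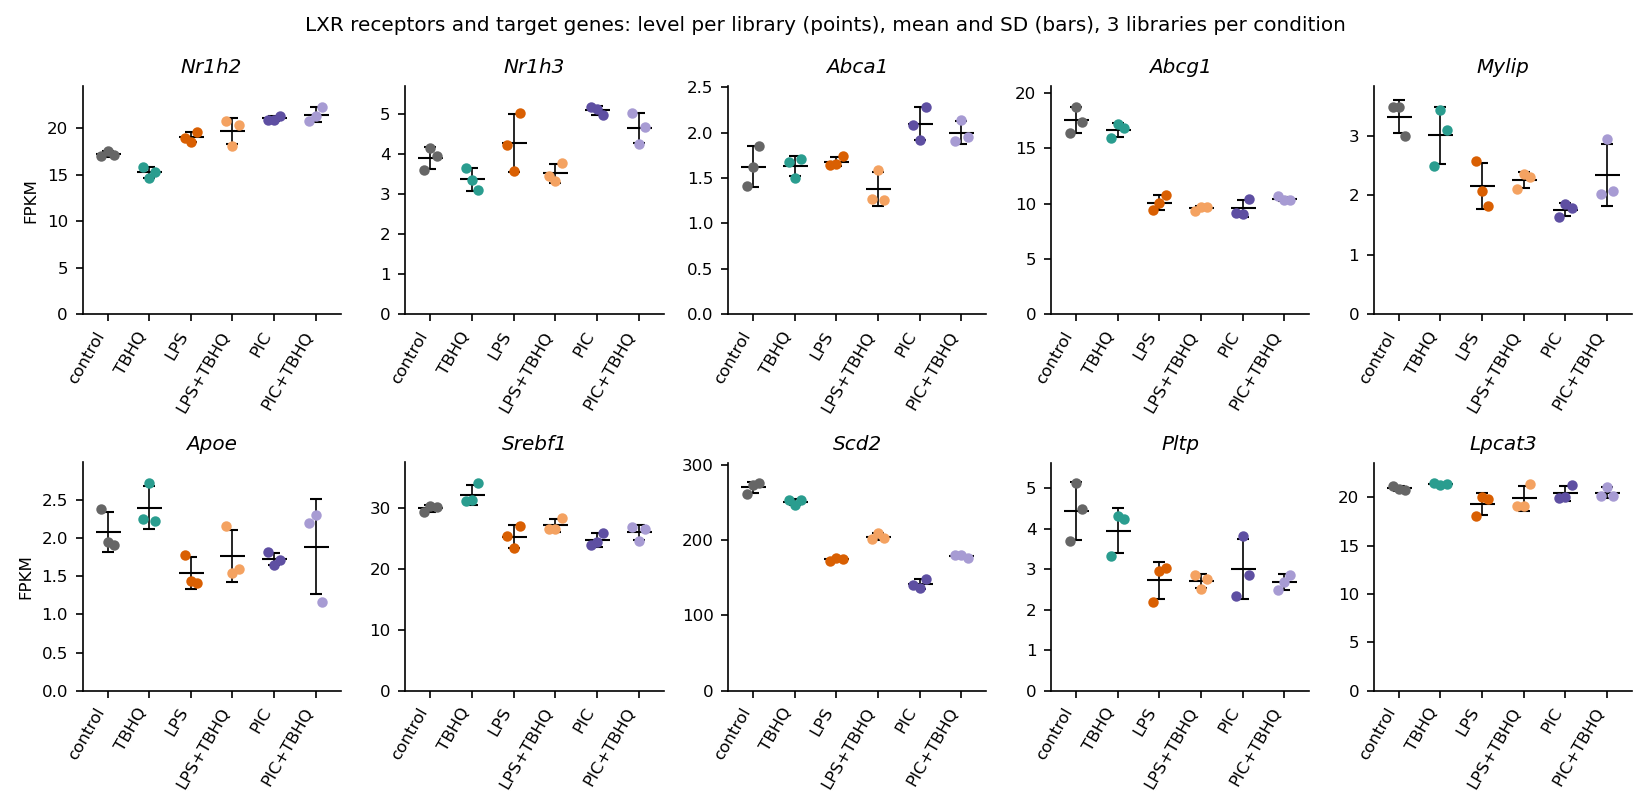
FPKM of each of the 10 genes in every library, by condition, with the mean and SD of the 3 libraries as bars; each panel starts at 0. Abcg1 and Scd2 fall with both stimuli, and Scd2 is higher with TBHQ in stimulated cells and lower with TBHQ alone.

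Nr1h2 encodes LXRβ, the receptor that most tissues express. It stood at 17.0, 17.6 and 17.1 FPKM in the control, 15.8, 14.7 and 15.3 with TBHQ, and 18.99, 18.54 and 19.56 with LPS. With PIC it stood at 20.8, 20.9 and 21.4 FPKM. All 3 TBHQ libraries were below, and all LPS and PIC libraries above, the control range. Nr1h2 fell by 0.18 on the log2 scale with TBHQ (SE 0.03, edgeR adjusted p = 0.00863), and the adjusted p was 0.051 without TBHQ replicate 2, the highest over its alternatives, which started at 0.00722. PIC raised Nr1h2 by 0.27 (log2, SE 0.02, edgeR adjusted p = 2.32e-05), a call that ended only with scaling to total library size, at 0.05 (log2) and an adjusted p of 0.366 in a range from 1.61e-06.

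The call of the smaller rise of Nr1h2 with LPS depended on single libraries. The rise was 0.14 (log2, SE 0.03, edgeR adjusted p = 0.0302), and its value ran from 0.127 to 0.164 with 1 library left out. The adjusted p was 0.0528 without LPS replicate 1, 0.0733 without LPS replicate 3, 0.0773 without control replicate 1 and 0.0706 without control replicate 3. Over its alternatives the range was 0.00778 to 0.472, the highest with total library size, where the log2 value was 0.05, and without the low-count filter it was 0.0762. PIC exceeded LPS by 0.14 (log2, SE 0.02, edgeR adjusted p = 0.0455). That call ended when any of LPS replicate 1 (0.101), LPS replicate 2 (0.125), PIC replicate 1 (0.0649), PIC replicate 2 (0.0722) or PIC replicate 3 (0.115) was left out. It also ended in the fit on these conditions alone (0.0544), without the filter (0.106) and with total library size, where the log2 value was 0.01 and the adjusted p 0.937, in a range from 0.0279. In LPS+TBHQ the gene stood at 20.7, 18.1 and 20.3 FPKM and in PIC+TBHQ at 20.7, 21.3 and 22.3, overlapping LPS and PIC. In order of mean, with neighbours called separated where the same test gave an adjusted p below 0.05 (the order itself came from the same values), PIC+TBHQ (21.4 FPKM) and PIC (21.0), PIC and LPS+TBHQ (19.7), and LPS+TBHQ and LPS (19.03) were not separated, while LPS and control (17.2) and control and TBHQ (15.3) were.

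Nr1h3 encodes LXRα, the receptor typical of liver, fat and macrophages, whose own gene is an LXR target in human macrophages. Its level was 3.60, 4.15 and 3.95 FPKM in the control, 3.66, 3.36 and 3.10 with TBHQ, and 4.23, 3.57 and 5.03 with LPS. With PIC it was 5.19, 5.12 and 4.98 FPKM. The PIC libraries lay above all controls, whereas TBHQ and LPS libraries overlapped them. Nr1h3 rose by 0.37 with PIC (log2, SE 0.06, edgeR adjusted p = 0.00701), and scaling to total library size ended this call at 0.15 (log2) and an adjusted p of 0.265 in a range from 0.00412.

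With TBHQ in stimulated cells, Nr1h3 stood at 3.45, 3.33 and 3.78 FPKM in LPS+TBHQ and at 5.02, 4.25 and 4.68 in PIC+TBHQ. Both groups overlapped the stimulus alone. LPS+TBHQ against LPS gave -0.28 (log2, SE 0.15, edgeR adjusted p = 0.0881), and without LPS replicate 2 the adjusted p was 0.023, in a range of 0.023 to 0.479. PIC against LPS gave 0.24 (log2, SE 0.14) at an edgeR adjusted p of 0.126, which was 0.0258 without LPS replicate 3 in a range of 0.0258 to 0.493. No neighbours in the order PIC (5.10 FPKM on average), PIC+TBHQ (4.65), LPS (4.28), control (3.90), LPS+TBHQ (3.52) and TBHQ (3.37) were separated.

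Abca1 encodes the transporter that loads cholesterol and phospholipid onto lipid-poor apolipoprotein A-I, and it is the gene most often used to read LXR activity. It stood at 1.41, 1.62 and 1.86 FPKM in the control, at 1.68, 1.51 and 1.71 with TBHQ and at 1.64, 1.66 and 1.74 with LPS. With PIC it reached 2.09, 1.92 and 2.29 FPKM. All 3 PIC libraries were above all control and all LPS libraries, while the TBHQ and LPS values lay inside the control range. Abca1 rose by 0.35 with PIC (log2, SE 0.13, edgeR adjusted p = 0.00258), and the call ended with total library size at 0.13 (log2) and an adjusted p of 0.248 in a range from 0.000529. LPS against control gave 0.04 (log2, SE 0.12, edgeR adjusted p = 0.799), with the sign reversed under total library size (-0.05) and without control replicate 1 (-0.06).

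The rise of Abca1 in PIC against LPS was 0.31 (log2, SE 0.08, edgeR adjusted p = 0.0165). The adjusted p was 0.0565 without LPS replicate 1, 0.107 without PIC replicate 3 and 0.152 with total library size, in a range from 0.0108, and the log2 value was 0.18 with total library size and 0.21 in limma on log2(FPKM + 1). In LPS+TBHQ Abca1 stood at 1.28, 1.59 and 1.26 FPKM, all below the LPS libraries. It fell by 0.29 against LPS (log2, SE 0.11, edgeR adjusted p = 0.0359), but the adjusted p was 0.0604, 0.0713 and 0.103 without LPS replicates 1, 2 and 3, and 0.147 and 0.169 without LPS+TBHQ replicates 1 and 3. It was also 0.0938 in limma, with a log2 value of -0.18, 0.0552 without the filter and 0.0584 with total library size, in a range of 0.00713 to 0.169. In PIC+TBHQ the values were 1.91, 2.14 and 1.96 FPKM, overlapping PIC. From PIC (2.10 FPKM) through PIC+TBHQ (2.00), LPS (1.68), TBHQ (1.63) and control (1.63) no neighbours were separated, and control and LPS+TBHQ (1.38) were (edgeR adjusted p = 0.0409), though their ranges overlapped and this pair was compared in 1 fit only.

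Abcg1 encodes a transporter that passes cholesterol from the cell to mature high-density lipoprotein. Its level was 16.4, 18.8 and 17.4 FPKM in the control, 15.9, 17.2 and 16.8 with TBHQ, and 9.39, 10.1 and 10.7 with LPS. With PIC it was 9.18, 9.06 and 10.5 FPKM. The 12 stimulated libraries all lay below the 6 unstimulated ones, and TBHQ overlapped the control. Abcg1 fell by 0.81 with LPS (log2, SE 0.08, edgeR adjusted p = 4.51e-15) and by 0.89 with PIC (log2, SE 0.09, edgeR adjusted p = 1.77e-16). No alternative ended either call.

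TBHQ left Abcg1 near its stimulated level. LPS+TBHQ libraries stood at 9.37, 9.71 and 9.68 FPKM and PIC+TBHQ libraries at 10.7, 10.3 and 10.4. Both groups overlapped the stimulus alone. PIC+TBHQ against PIC gave 0.14 (log2, SE 0.07, edgeR adjusted p = 0.0666), with 0.0127 without PIC replicate 3 and 0.00456 with total library size, in a range of 0.00456 to 0.362. In order of mean, control (17.5 FPKM) and TBHQ (16.6) were not separated, TBHQ was above PIC+TBHQ (10.5, edgeR adjusted p = 3.13e-13), and PIC+TBHQ, LPS (10.1), LPS+TBHQ (9.59) and PIC (9.57) were not separated from their neighbours. So the 2 efflux transporters did not move together: with TMM scaling PIC raised Abca1 and lowered Abcg1.

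Mylip encodes IDOL, a ubiquitin ligase that limits the uptake of lipoprotein cholesterol. It stood at 3.49, 3.47 and 3.00 FPKM in the control, at 2.57, 2.07 and 1.82 with LPS and at 1.63, 1.85 and 1.79 with PIC. Every LPS and PIC library was below every control library. Mylip fell by 0.63 with LPS (log2, SE 0.16, edgeR adjusted p = 0.000491) and by 0.93 with PIC (log2, SE 0.09, edgeR adjusted p = 1.93e-06), and no alternative ended these calls. With TBHQ alone it stood at 2.49, 3.42 and 3.10 FPKM, and with LPS+TBHQ at 2.11, 2.37 and 2.31, overlapping their comparison groups.

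PIC+TBHQ libraries held 2.01, 2.94 and 2.06 FPKM of Mylip, above the PIC libraries, with replicate 2 the highest. The rise was 0.42 (log2, SE 0.18, edgeR adjusted p = 0.0444). The adjusted p was 0.365 without PIC+TBHQ replicate 2 and 0.151, 0.0717 and 0.0892 without PIC replicates 1, 2 and 3, and the log2 value without PIC+TBHQ replicate 2 was 0.22. DESeq2 gave 0.062, its size factors in edgeR 0.0544, the fit on these conditions alone 0.0584, limma 0.0835, with a log2 value of 0.27, and a minimum mean of 50 counts 0.051, in a range of 0.0161 to 0.365. Along the order control (3.32 FPKM), TBHQ (3.00), PIC+TBHQ (2.34), LPS+TBHQ (2.26), LPS (2.15) and PIC (1.76), only TBHQ and PIC+TBHQ were separated (edgeR adjusted p = 0.0302), with ranges that overlapped.

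Apoe encodes apolipoprotein E, which macrophages secrete and which accepts cholesterol. It was weakly expressed in this line: 2.38, 1.95 and 1.91 FPKM in the control, 1.78, 1.43 and 1.41 with LPS and 1.82, 1.65 and 1.71 with PIC. The LPS and PIC libraries lay below the controls. Neither difference passed the test, with -0.44 for LPS (log2, SE 0.14, edgeR adjusted p = 0.0849) and -0.28 for PIC (log2, SE 0.11, edgeR adjusted p = 0.245), and with total library size they passed at 0.0351 in a range up to 0.259 and at 0.0317 in a range up to 0.533. The TBHQ groups stood at 2.25, 2.72 and 2.22 FPKM alone, 2.15, 1.55 and 1.60 in LPS+TBHQ and 2.19, 2.30 and 1.17 in PIC+TBHQ. Each overlapped its comparison group, and PIC+TBHQ replicate 3 was the lowest of all 18 libraries. No neighbours in the order TBHQ (2.40 FPKM), control, PIC+TBHQ, LPS+TBHQ, PIC and LPS (1.54) were separated.

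Pltp encodes phospholipid transfer protein, a secreted protein that remodels high-density lipoprotein. Its level was 3.71, 5.13 and 4.48 FPKM in the control, 2.20, 2.96 and 3.03 with LPS and 2.35, 3.82 and 2.86 with PIC. All LPS libraries were below all controls, whereas PIC replicate 2 lay inside the control range. Pltp fell by 0.71 with LPS (log2, SE 0.20, edgeR adjusted p = 0.000203) and by 0.58 with PIC (log2, SE 0.24, edgeR adjusted p = 0.00113), and no alternative ended either call. TBHQ alone gave 3.32, 4.32 and 4.24 FPKM, LPS+TBHQ 2.87, 2.51 and 2.76 and PIC+TBHQ 2.49, 2.69 and 2.87, each overlapping its comparison group. In order of mean, control (4.44 FPKM) and TBHQ (3.96) were not separated, TBHQ and PIC (3.01) were (edgeR adjusted p = 0.019) though their ranges overlapped, and PIC, LPS (2.73), LPS+TBHQ (2.71) and PIC+TBHQ (2.69) were not separated from their neighbours. The gene overlaps Ctsa on the opposite strand, which had a mean of 16128 counts per library against 132 for Pltp, and the share of Pltp counts that came from Ctsa was not tested.

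Srebf1 encodes the transcription factor SREBP-1, which drives fatty acid synthesis, and its SREBP-1c transcript is the one that LXRs induce. Gene counts do not separate its transcripts. It stood at 29.3, 30.2 and 30.2 FPKM in the control, 25.4, 23.3 and 27.1 with LPS, and 23.8, 24.4 and 25.9 with PIC. Every stimulated library was below every control library. Srebf1 fell by 0.25 with LPS (log2, SE 0.06, edgeR adjusted p = 3.92e-05) and by 0.29 with PIC (log2, SE 0.04, edgeR adjusted p = 2.65e-06), which became -0.51 with total library size.

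TBHQ alone gave 31.1, 31.3 and 34.0 FPKM of Srebf1, above all controls, at 0.10 (log2, SE 0.04, edgeR adjusted p = 0.105). LPS+TBHQ gave 26.5, 26.6 and 28.3 FPKM and PIC+TBHQ 26.9, 24.6 and 26.6, overlapping LPS and PIC. The first differed from LPS by 0.10 (log2, SE 0.07, edgeR adjusted p = 0.131), with 0.0261 without LPS replicate 3 and 0.0457 with total library size in a range up to 0.571, and the second from PIC by 0.09 (log2, SE 0.05, edgeR adjusted p = 0.194), with 0.0105 with total library size in a range up to 0.615. From TBHQ (32.1 FPKM) through control (29.9), LPS+TBHQ (27.1), PIC+TBHQ (26.0), LPS (25.3) and PIC (24.7), only control and LPS+TBHQ were separated neighbours (edgeR adjusted p = 0.00947). Srebf1 overlaps Rai1, which lies on the opposite strand with a mean of 632 counts against 2451.

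Scd2 encodes a stearoyl-CoA desaturase, which makes monounsaturated fatty acids. It had 261.4, 272.3 and 275.2 FPKM in the control, 172, 176 and 175 with LPS, and 141, 136 and 149 with PIC. The 3 groups did not overlap, with the control highest and PIC lowest. Scd2 fell by 0.64 with LPS (log2, SE 0.03, edgeR adjusted p = 6.5e-19) and by 0.94 with PIC (log2, SE 0.04, edgeR adjusted p = 2.98e-24), and was lower in PIC than in LPS by 0.31 (log2, SE 0.04, edgeR adjusted p = 1.03e-09).

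TBHQ moved Scd2 in opposite directions without and with a stimulus. TBHQ alone gave 253, 246 and 252 FPKM, all below the control, and Scd2 fell by 0.11 (log2, SE 0.03, edgeR adjusted p = 0.00715). LPS+TBHQ gave 201, 210 and 203 FPKM, all above LPS, a rise of 0.23 (log2, SE 0.02, edgeR adjusted p = 5.18e-07). PIC+TBHQ gave 180, 180 and 176 FPKM, all above PIC, a rise of 0.34 (log2, SE 0.04, edgeR adjusted p = 6.68e-11). Both combined groups were still below the control, by -0.41 for LPS+TBHQ (log2, SE 0.03, edgeR adjusted p = 1.95e-13) and -0.60 for PIC+TBHQ (log2, SE 0.02, edgeR adjusted p = 2.23e-18). No alternative ended a call of Scd2 in the comparisons with TBHQ alone, with each stimulus and with TBHQ over each stimulus; the combined groups were compared with the control in 1 fit only. In order, control (270 FPKM), TBHQ (250.6), LPS+TBHQ (205) and PIC+TBHQ (178) each differed from the next, PIC+TBHQ and LPS (175) were not separated, and LPS was above PIC (142). Of the words of 50 bases in the Scd2 transcripts, 3.97% also occur in another gene, among them Scd1, Scd3 and Scd4, so that some fragments could be shared.

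Lpcat3 encodes an acyltransferase that puts polyunsaturated fatty acids into membrane phospholipids. It varied little: 21.2, 20.8 and 20.8 FPKM in the control, 18.04, 20.03 and 19.86 with LPS and 19.97, 19.99 and 21.32 with PIC. The LPS libraries lay below the controls and the PIC libraries overlapped them. It fell by 0.12 with LPS (log2, SE 0.05, edgeR adjusted p = 0.0488). Without LPS replicate 1 the log2 value was -0.07 and the adjusted p 0.324. The adjusted p was 0.0617 without LPS replicate 3, and 0.11, 0.0798 and 0.0774 without control replicates 1, 2 and 3. DESeq2 gave 0.0897, its size factors 0.0649, the fit on these conditions alone 0.0775, limma 0.0527, a minimum mean of 50 counts 0.0878 and no filter 0.116, in a range of 0.000806 to 0.324, and total library size moved the value to -0.21.

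PIC against control gave -0.05 for Lpcat3 (log2, SE 0.03, edgeR adjusted p = 0.425), and with total library size -0.27 (log2) at an adjusted p of 2.38e-05, in a range up to 0.815. With TBHQ it stood at 21.5, 21.3 and 21.4 FPKM alone, 19.1, 19.1 and 21.4 in LPS+TBHQ and 20.1, 21.1 and 20.1 in PIC+TBHQ. TBHQ alone was above all controls by 0.03 (log2, SE 0.01, edgeR adjusted p = 0.732), and the combined groups overlapped the stimulus alone. No neighbours in the order TBHQ (21.4 FPKM), control (20.9), PIC+TBHQ (20.5), PIC (20.4), LPS+TBHQ (19.9) and LPS (19.3) were separated. Lpcat3 overlaps Emg1, on the opposite strand, which had a mean of 1968 counts against 1049.

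Whether the TBHQ effect depended on the stimulus was tested as a difference of differences. Comparisons with the TBHQ effect in unstimulated cells were added after the values of Scd2 had been seen. Against unstimulated cells, edgeR called 2 of the 10 genes higher with LPS, where 9.14% of all tested genes were called higher, and 4 with PIC, where 13.3% were; 0 were called lower in either, against 9.33% and 12.5% of all tested genes, also at an unadjusted p below 0.05, in DESeq2 and in limma. For Scd2 the difference was 0.34 with LPS (log2, SE 0.03, edgeR adjusted p = 4.11e-07) and 0.45 with PIC (log2, SE 0.05, edgeR adjusted p = 7.47e-10), and no alternative ended either call. DESeq2 called 2 genes with LPS and 1 with PIC, and limma called 2 in each. The other calls, of Nr1h2 with both stimuli and of Abcg1 and Mylip with PIC, each ended without single libraries and are given in the closing section. Unstimulated TBHQ cells were harvested at 4 h and stimulated ones 12 h later, so that the stimulus and the time since TBHQ cannot be told apart here.

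Genes that work with LXRs or in the same pathways were followed beside the 10, in lists that share members: Scd1 is in 3 of them, and Fasn and Srebf2 are in 2 each, so that a call can be counted more than once. Like the 10 genes, the lists were chosen with earlier results of these data known. Of 13 RXR partners and coregulators, 12 were tested and Rxrg was not. With TBHQ 8 rose, where 14.2% of all tested genes rose and 14.8% fell, with a list median of 0.17 (log2), and edgeR called 0 lower, also at an unadjusted p below 0.05, in DESeq2 and in limma; without control replicate 2, 5 rose. Rxra, the RXR of many macrophage studies, stood at 4.05, 3.93 and 4.75 FPKM in LPS and 5.74, 6.01 and 5.61 in LPS+TBHQ. It stood at 3.85, 3.93 and 4.01 FPKM in PIC and 5.32, 6.26 and 5.67 in PIC+TBHQ. TBHQ libraries were above the stimulus alone in both cases, by 0.44 (log2, SE 0.09, edgeR adjusted p = 1.15e-05) and 0.56 (log2, SE 0.07, edgeR adjusted p = 1.92e-07).

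With the stimuli the partners moved in both directions. After LPS 4 of 12 rose and 2 fell (list median 0.05), where 24.0% and 24.1% of all tested genes did, and 2 rose without LPS replicate 1, control replicate 1 or control replicate 2, or in limma. After PIC 5 rose and 3 fell (list median 0.06), where 28.6% and 30.1% of all tested genes did. With total library size the counts after PIC were 0 and 6, with Ncor1 reversed from 0.19 to -0.03 (log2). Of all 13691 tested genes, 2379 rose and 6635 fell with PIC under that scaling. After LPS the count of 4 was 0 under that scaling, where 2454 of all tested genes rose and 4558 fell. Ncoa3, a coactivator, fell by 0.44 with LPS (log2, SE 0.05, edgeR adjusted p = 6.28e-11) and by 0.45 with PIC (log2, SE 0.05, edgeR adjusted p = 2.61e-11). In LPS+TBHQ against LPS, 3 rose and 1 fell (list median 0.03; all tested genes 11.7% and 12.2%), and the fall was lost in limma, without the filter, with total library size, and without LPS replicate 1, LPS replicate 2, LPS+TBHQ replicate 2 or LPS+TBHQ replicate 3 (0 lower in each). In PIC+TBHQ against PIC, 3 rose and 3 fell (list median -0.01; all tested genes 15.8% and 15.5%), with 1 lower without PIC replicate 1 or with total library size.

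Other LXR targets known from macrophages fell more often than they rose after stimulation. Of 13, 9 were tested, and Arl4c, Mertk, Apoc1 and Apoc2 were not; Arl4c and Mertk had 0 to 5 counts per library. LPS raised 1 and lowered 6 (list median -0.38), PIC raised 2 and lowered 6 (-0.32), and TBHQ alone raised 2 and lowered 3 (-0.15). Of all tested genes, 24.0% rose and 24.1% fell with LPS, 28.6% and 30.1% with PIC, and 14.2% and 14.8% with TBHQ. Scd1, a desaturase gene of the same family as Scd2, stood at 46.6, 47.7 and 47.2 FPKM in the control, at 22.4, 21.7 and 21.7 with LPS and at 18.8, 17.8 and 21.3 with PIC. Both stimulated groups were below the control, by -1.11 (log2, SE 0.02, edgeR adjusted p = 1.06e-21) and -1.30 (log2, SE 0.08, edgeR adjusted p = 5.25e-24). The ubiquitin ligase gene Rnf145 rose with both, by 0.32 (log2, SE 0.02, edgeR adjusted p = 2.28e-06) and 0.64 (log2, SE 0.05, edgeR adjusted p = 8.1e-14; 0.43 with total library size). Tgm2, a transglutaminase that helps the uptake of dying cells, stood at 4.04, 4.40 and 3.52 FPKM in the control, 3.80, 3.42 and 3.78 with LPS and 8.46, 8.68 and 8.02 with PIC. It rose by 1.06 with PIC (log2, SE 0.10, edgeR adjusted p = 3.47e-13), exceeded LPS by 1.18 (log2, edgeR adjusted p = 3.37e-13), and overlapped the control in LPS.

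With TBHQ in stimulated cells, 3 of the 9 other targets rose and 2 fell in each comparison, with list medians of 0.14 over LPS and 0.12 over PIC, where 11.7% and 12.2% of all tested genes rose and fell over LPS and 15.8% and 15.5% over PIC. The falls in PIC+TBHQ went from 2 to 1 without PIC replicate 3, without PIC+TBHQ replicate 1 or with total library size. Scd1 stood at 29.7, 29.8 and 29.4 FPKM in LPS+TBHQ and 25.5, 26.5 and 25.2 in PIC+TBHQ, above LPS and PIC. The rises were 0.43 (log2, SE 0.01, edgeR adjusted p = 1.19e-09) and 0.42 (log2, SE 0.08, edgeR adjusted p = 2.71e-09).

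Most genes of fatty acid synthesis and desaturation, the arm that Srebf1 drives, fell with the stimuli and were higher with TBHQ in stimulated cells. All 12 were tested, and Scd1 and Fasn are among them. LPS raised 2 and lowered 9 (list median -0.34), and PIC raised 3 and lowered 9 (-0.52), against 24.0% and 24.1% of all tested genes with LPS and 28.6% and 30.1% with PIC; with total library size 1 rose with LPS. In LPS+TBHQ against LPS, 10 rose (0.34), where 11.7% of all tested genes rose and 12.2% fell, and edgeR called 0 lower, also at an unadjusted p below 0.05, in DESeq2 and in limma. In PIC+TBHQ against PIC, 10 rose and 1 fell (0.30; all tested genes 15.8% and 15.5%), and the fall was lost with total library size. TBHQ alone raised 5 and lowered 1 (0.11; all tested genes 14.2% and 14.8%), and the count of 1 was 0 when any of the 6 libraries was left out, in DESeq2, with its size factors and in limma. The malic enzyme gene Me1 was an exception to the falls, with a rise of 0.42 with LPS (log2, SE 0.04, edgeR adjusted p = 1.43e-08) and of 0.57 with PIC (log2, SE 0.06, edgeR adjusted p = 7.65e-12; 0.35 with total library size).

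Fads2, a desaturase for polyunsaturated fatty acids, showed the pattern with little spread. It stood at 94.0, 92.5 and 92.9 FPKM in the control, 53.6, 53.5 and 55.4 with LPS, and 71.2, 73.6 and 74.1 with LPS+TBHQ. With PIC it stood at 51.5, 49.2 and 52.5 FPKM, and with PIC+TBHQ at 67.5, 65.4 and 65.7. In both cases the combined group lay between the stimulus and the control, with no overlap. Fads2 fell by 0.79 with LPS (log2, SE 0.02, edgeR adjusted p = 5.18e-20) and by 0.88 with PIC (log2, SE 0.03, edgeR adjusted p = 8.67e-22). TBHQ raised it by 0.43 over LPS (log2, SE 0.03, edgeR adjusted p = 6.37e-12) and by 0.39 over PIC (log2, SE 0.03, edgeR adjusted p = 1.02e-10). Elovl6, an elongase, fell by 0.69 and 1.18 with LPS and PIC and rose by 0.33 and 0.54 with TBHQ over them (log2, edgeR adjusted p from 3.68e-18 to 0.000105).

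**Figure D3:**
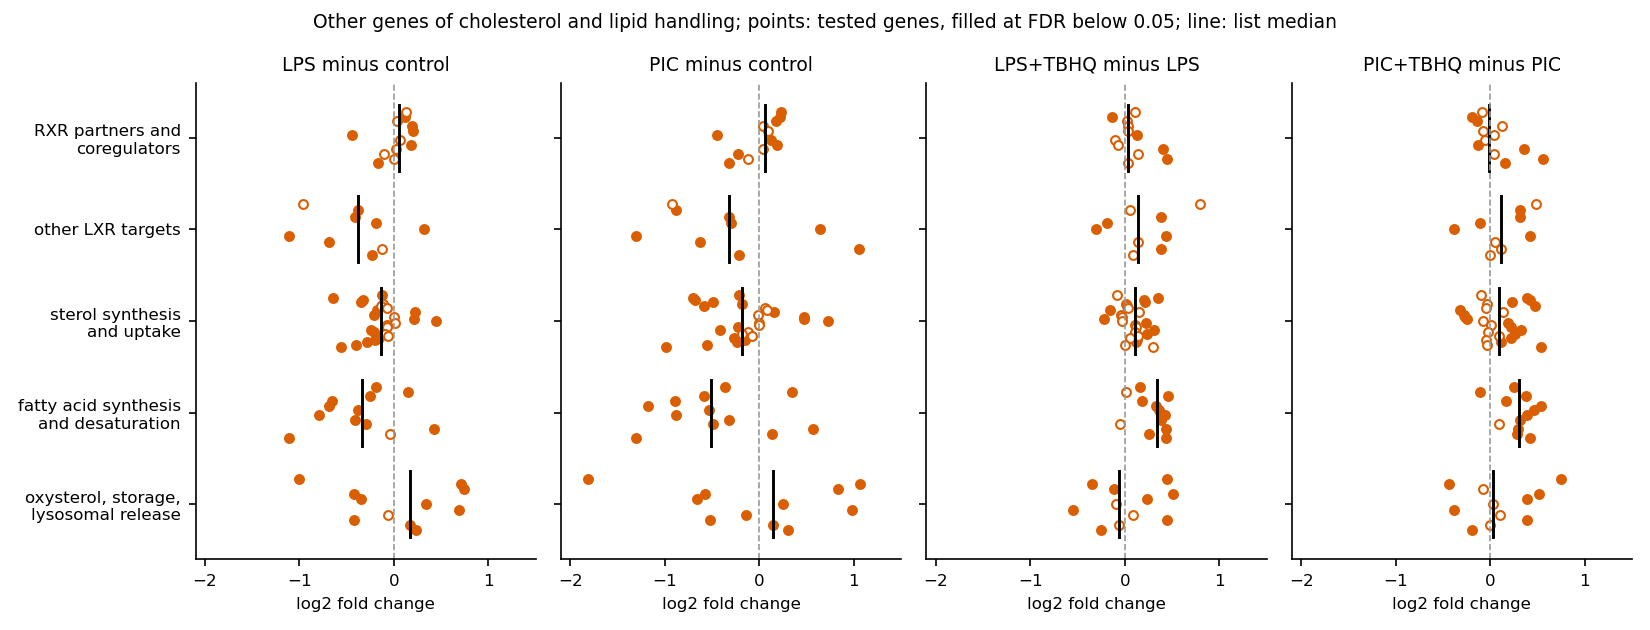
Log2 fold change of the tested genes in 5 lists of cholesterol and lipid genes, 1 panel per comparison; filled points passed an adjusted p below 0.05 and the thick vertical line is the list median. The fatty acid genes have medians of -0.34 and -0.52 with LPS and PIC, and of 0.34 and 0.30 with TBHQ over each stimulus.

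Sterol synthesis and uptake, driven by the related factor SREBP-2, leaned lower with the stimuli. Of 26 genes, 25 were tested. LPS raised 3 and lowered 13 (list median -0.14), and PIC raised 4 and lowered 13 (-0.18). Of all tested genes, 24.0% rose and 24.1% fell with LPS, and 28.6% and 30.1% with PIC. Total library size changed the 3 raised by LPS to 1 and the 13 lowered by PIC to 21. Under that scaling, 2454 of all 13691 tested genes rose with LPS and 6635 fell with PIC.

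With TBHQ the sterol genes gave counts that single libraries changed. TBHQ alone raised 7 and lowered 5 (list median -0.02), against 14.2% and 14.8% of all tested genes. Over LPS 8 rose and 2 fell (0.11; all tested genes 11.7% and 12.2%), where 2 rose without LPS replicate 1, 5 without LPS+TBHQ replicate 1 or 3, and 4 in limma. The 2 falls became 0 without LPS replicate 2 or LPS+TBHQ replicate 3 and 1 without LPS replicate 3 or LPS+TBHQ replicate 2, and they were 1 in DESeq2 and limma and 0 without the filter or with total library size. Over PIC 11 rose and 4 fell (0.10; all tested genes 15.8% and 15.5%), where 6 rose without PIC replicate 1 and 7 without PIC replicate 2 or PIC+TBHQ replicate 2.

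Genes of oxysterol synthesis, cholesterol storage and lysosomal release moved in both directions. Of 16, 11 were tested; Ch25h, Cyp7b1, Cyp46a1, Hsd3b7 and Sult2b1 were not. Ch25h, which makes the oxysterol 25-hydroxycholesterol, had 0 counts in all 3 controls and 9, 4 and 3 counts with PIC. LPS raised 6 and lowered 4 (list median 0.17), against 24.0% and 24.1% of all tested genes. PIC raised 6 and lowered 5 (0.14), against 28.6% and 30.1%, with 3 rises under total library size and Soat1, which esterifies cholesterol for storage, reversed from a rise of 0.14 (edgeR adjusted p = 0.000296) to a fall of 0.08 (log2, adjusted p = 0.0291 in a range from 6.31e-07). Cyp27a1, which makes the LXR ligand 27-hydroxycholesterol, stood at 7.80, 9.58 and 8.77 FPKM in the control, 4.97, 5.52 and 5.45 with TBHQ and 3.89, 4.62 and 4.57 with LPS. With PIC it stood at 2.63, 2.82 and 2.15 FPKM, and no library of the 3 treated groups reached the control range. It fell by 0.72 with TBHQ (log2, SE 0.10, edgeR adjusted p = 2.6e-06), by 1.01 with LPS (log2, SE 0.12, edgeR adjusted p = 2.19e-09) and by 1.81 with PIC (log2, SE 0.14, edgeR adjusted p = 3.81e-15).

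In stimulated cells TBHQ raised Cyp27a1, to 6.41, 5.62 and 5.80 FPKM over LPS and 3.69, 4.15 and 4.76 FPKM over PIC. All libraries with TBHQ were above those with the stimulus alone, by 0.45 (log2, SE 0.10, edgeR adjusted p = 0.00446) and 0.75 (log2, SE 0.16, edgeR adjusted p = 3.87e-05). Over LPS 4 of the 11 genes rose and 4 fell (list median -0.06), over PIC 4 rose and 3 fell (0.03), and TBHQ alone raised 2 and lowered 4 (0.01). Of all tested genes, 11.7% and 12.2% rose and fell over LPS, 15.8% and 15.5% over PIC and 14.2% and 14.8% with TBHQ alone. Lipa, the lysosomal acid lipase that frees cholesterol from lipoprotein esters, rose by 0.56 with TBHQ alone, 0.51 over LPS and 0.52 over PIC (log2, edgeR adjusted p = 1.7e-14, 1.47e-13 and 1.03e-13). Npc2, which hands cholesterol on in the lysosome, fell in the same 3 comparisons, by 0.25, 0.55 and 0.38 (log2, edgeR adjusted p = 4.91e-07, 1.76e-15 and 1.79e-11).

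Family relatives of the 10 genes numbered 18, of which 13 were tested. LPS raised 1 and lowered 6 (list median -0.22), where 24.0% and 24.1% of all tested genes did, and PIC raised 2 and lowered 6 (-0.24), where 28.6% and 30.1% did, with 1 rise under total library size. TBHQ raised 4 alone (0.13), 7 over LPS (0.18) and 7 over PIC (0.17), where 14.2%, 11.7% and 15.8% of all tested genes rose and 14.8%, 12.2% and 15.5% fell, and the count over LPS was 4 without LPS replicate 2. In these 3 comparisons edgeR called 0 lower, also at an unadjusted p below 0.05, in DESeq2 and in limma. Lpcat1, an acyltransferase of phosphatidylcholine remodelling, fell by 0.40 with LPS (log2, edgeR adjusted p = 2.5e-07), and Lpcat2 rose by 0.45 with PIC (log2, edgeR adjusted p = 6.43e-08; 0.23 with total library size). Mboat1, an acyltransferase, fell by 1.01 with LPS (log2, edgeR adjusted p = 4.21e-12) and by 1.20 with PIC (log2, edgeR adjusted p = 3.79e-14). Abcg2, a drug transporter, had 46 to 81 counts per library.

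Across the 18 libraries and 10451 genes with enough counts, the genes most like 3 of the 10 were listed by Pearson r, as a description. For Abca1 they were Igsf6 (r = 0.828), Cxcl10 (r = 0.823) and Nfkbie (r = 0.822). For Abcg1 they were Arl8b (r = 0.979), Tmed10 (r = 0.976) and Oxct1 (r = 0.975). For Nr1h3 they were Dse (r = 0.927), Fau (r = 0.883) and Ogfr (r = 0.868).

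Promoter windows of 300 bases, from 250 before to 50 after the start of a gene, were taken from RefSeq (build GRCm38.p6) and were matched for 8 of the 10 genes, in 13 windows; Abcg1 and Scd2 were not matched. LXR with RXR binds a direct repeat: the half-site AGGTCA, any 4 bases, the half-site again. With at most 2 mismatches in its 12 fixed bases, on both strands, 0 of the 13 windows held it, where 3.02% of 32851 promoters did. The search was widened to 3 mismatches after this result was seen, and then 2 of the 13 windows matched, against 21.9% of all promoters. The exact sterol element TCACNCCAC was in 0 of the 13 (1.24% of all), the antioxidant element TGACNNNGC in 0 (12.4%), and the interferon element, GAAA, any 2 bases, GAAA again, in 0 (3.44%), each on both strands. A match is a description of the letters, and no match says only that they are not in these windows.

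The 2 windows with a match are printed to show its letters. They lie beside a transporter gene that rose with PIC and a factor gene that fell with it. Each match differs from the repeat at 3 of its 12 fixed positions, and whether LXR binds there was not tested. Both windows are on the minus strand of GRCm38.p6 and read 5′ to 3′ along the gene, and the match lies on the strand opposite to the gene. Capitals mark the 12 fixed positions of the repeat. The Abca1 window is chr4:53159846-53160145, with the match at 53159947 to 53159962, from 67 to 52 bases before the start. Srebf1 had other windows, which held no match. The printed Srebf1 window is chr11:60210422-60210721, with the match at 60210638 to 60210653, from 182 to 167 bases before that start.
Abca1: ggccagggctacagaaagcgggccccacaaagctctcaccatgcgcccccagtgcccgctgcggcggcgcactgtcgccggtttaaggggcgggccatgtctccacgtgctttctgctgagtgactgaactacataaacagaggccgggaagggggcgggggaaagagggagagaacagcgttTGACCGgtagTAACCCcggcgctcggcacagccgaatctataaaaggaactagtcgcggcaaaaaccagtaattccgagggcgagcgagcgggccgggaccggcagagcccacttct
Srebf1: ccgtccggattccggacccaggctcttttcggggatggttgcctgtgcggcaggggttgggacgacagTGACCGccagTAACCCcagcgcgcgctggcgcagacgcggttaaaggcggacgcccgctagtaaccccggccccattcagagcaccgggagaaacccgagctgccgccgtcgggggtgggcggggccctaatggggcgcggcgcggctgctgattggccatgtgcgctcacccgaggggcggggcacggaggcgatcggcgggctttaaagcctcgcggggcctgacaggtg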

How the data were processed

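RNA-seq values of 18 libraries were taken as deposited. The authors aligned reads with HISAT2 2.0.5, and the deposited counts per gene come from featureCounts 1.5.0-p3; the authors also deposited FPKM, with StringTie 1.3.3b named for transcript assembly. The sources name 2 genome builds without their roles. The paper describes strand-specific libraries, the sample records name both directional and other libraries, and whether counting used the strand was not clear, so overlapping genes are named in the report. FPKM was used for levels and counts for tests.

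Of 27701 genes with a count, 13691 passed filterByExpr. One edgeR 4.0.16 quasi-likelihood fit (R 4.3.3, TMM scaling) covered all 18 libraries, with a common dispersion of 0.00192, and p-values were adjusted by Benjamini-Hochberg over all tested genes. SE is that of the replicates' log2 CPM. Alternatives were DESeq2 1.42.0, its size factors (RLE) in edgeR, limma 3.58.1 on log2(FPKM + 1), total library size, other filters and thresholds, the compared conditions alone, replicate number as a factor, and each library left out. The TBHQ differences against unstimulated cells and the search with 3 mismatches were added after the data were seen. Python 3.11.15 with pandas 2.3.3, numpy 2.4.6, scipy 1.17.1 and matplotlib 3.10.9 made tables and figures.

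Members and lists were chosen with earlier results of these data known. The text could name all 10 genes, a set of listed genes, the called gene with the largest rise and the largest fall in each list and comparison at a mean of at least 50 counts, and the 3 genes most like Abca1, Abcg1 and Nr1h3. Results of some listed genes are not reported here.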

Additional observations from a re-analysis of the deposited data

Results flagged for a closer look

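These 8 values differed between groups at an adjusted p below 0.05, and each is the TBHQ effect in 1 setting minus that in another, on the log2 scale. Between PIC and LPS, Insig1 had -0.233 (edgeR adjusted p = 0.0287, range over alternatives 0.00345 to 0.0856). That call ended without LPS replicate 1 (0.0856), LPS+TBHQ replicates 1 and 3 (0.0813 and 0.068), PIC replicate 1 (0.05) and PIC+TBHQ replicates 1 and 2 (0.0832 and 0.0726), and with total library size (0.0786). Ifit1 had 0.541 (edgeR adjusted p = 0.00076, range 4.46e-07 to 0.0726, the highest in limma).

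Between LPS and unstimulated cells, Scd2 had 0.335 (edgeR adjusted p = 4.11e-07) and Nr1h2 had 0.229 (edgeR adjusted p = 0.0243, range 0.00466 to 0.0783). The Nr1h2 call ended without LPS replicate 2 (0.0611), LPS+TBHQ replicates 1 and 3 (0.0783 and 0.0671), TBHQ replicate 2 (0.0682) or control replicate 2 (0.0588).

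Between PIC and unstimulated cells, Scd2 had 0.448 (edgeR adjusted p = 7.47e-10) and Nr1h2 had 0.217 (edgeR adjusted p = 0.0247, range 0.00255 to 0.0939). That Nr1h2 call ended without PIC replicates 1, 2 and 3 (0.0749, 0.0672 and 0.0504), PIC+TBHQ replicate 3 (0.0939), TBHQ replicate 2 (0.0678) or control replicate 2 (0.0576), in DESeq2 (0.0568) and without the filter (0.0575).

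Abcg1 had 0.212 in the same comparison (edgeR adjusted p = 0.0367, range 0.00461 to 0.165). Its call ended without PIC replicates 1 and 2 (0.152 and 0.165), PIC+TBHQ replicates 1, 2 and 3 (0.0915, 0.0564 and 0.0623), TBHQ replicate 1 (0.1) or control replicate 2 (0.141), and in DESeq2 (0.0686), with RLE (0.061), in limma (0.107) and at a mean of 50 counts (0.0536).

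Mylip had 0.562 (edgeR adjusted p = 0.0459, range 0.0214 to 0.228). Its call ended without PIC replicates 1, 2 and 3 (0.114, 0.0616 and 0.0749), PIC+TBHQ replicate 2 (0.228, with the value at 0.365), TBHQ replicates 1 and 3 (0.137 and 0.0552) or control replicates 1 and 2 (0.0856 and 0.0928), and in DESeq2 (0.0614), with RLE (0.0557), in limma (0.092) and at a mean of 50 counts (0.0519).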

How the results depend on the processing

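In the main fit, 0 of the 10 genes passed an adjusted p below 0.01 with a log2 fold change past 2. Likewise, 0 passed an adjusted p below 0.05 with one past 1. Both hold in TBHQ, LPS and PIC against control, in PIC against LPS, and in the combined groups against their stimulus alone. Of all tested genes, 1.64% passed the first threshold with LPS and 3.57% with PIC. The other shares of all tested genes are not given here, so these counts are not read as particular to the 10 genes. Over the alternatives, the lowest values in PIC against control were -1.104 for Abcg1, -1.149 for Mylip and -1.160 for Scd2. No alternative ended these calls. In LPS+TBHQ against LPS, limma called 1 and no filter 1. In PIC+TBHQ against PIC, DESeq2, RLE, the compared conditions alone, limma and a mean of 50 counts called 1 each. Total library size called 4 there, all higher, where 3398 of all 13691 tested genes were higher and 1436 lower under that scaling. With 1 library left out, the genes called were 1 to 2 for TBHQ against control, 5 to 7 for LPS, 8 for PIC, 1 to 2 in LPS+TBHQ against LPS, 1 to 2 in PIC+TBHQ against PIC, 1 to 4 in PIC against LPS and 0 for the difference between TBHQ effects. The cause was not tested.

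Some values changed sign under an alternative (log2). Abca1 with TBHQ had 0.003 in DESeq2, 0.003 with RLE, 0.004 in limma and 0.004 at a mean of 50 counts, and with LPS it had -0.052 with total library size. In LPS+TBHQ against LPS, Pltp had 0.001 in limma, 0.005 without the filter and 0.014 with total library size. In PIC+TBHQ against PIC, Lpcat3 had -0.005 in DESeq2, -0.005 with RLE and -0.008 at a mean of 50 counts. With total library size, Abca1 had 0.007 in PIC+TBHQ against PIC, Pltp -0.002 and Lpcat3 -0.056 in PIC against LPS. Under that scaling the difference between TBHQ effects was 0.032 for Nr1h2, 0.027 for Srebf1 and 0.014 for Lpcat3. Of 2 genes called higher in PIC against control, Ncor1 had -0.027 with total library size and Soat1 -0.078, which passed as lower at an adjusted p of 0.0291. The cause was not tested.

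With 1 library left out, values that changed sign ran from -0.094 to 0.104 for Abca1 with TBHQ and from -0.055 to 0.145 with LPS. In LPS+TBHQ against LPS they ran from -0.037 to 0.214 for Mylip, from -0.147 to 0.071 for Pltp and from -0.016 to 0.07 for Lpcat3. In PIC+TBHQ against PIC they ran from -0.039 to 0.386 for Apoe, from -0.306 to 0.033 for Pltp and from -0.021 to 0.029 for Lpcat3. In PIC against LPS they ran from -0.089 to 0.017 for Srebf1 and from -0.067 to 0.272 for Pltp. For the difference between TBHQ effects they ran from -0.069 to 0.024 for Nr1h2, -0.233 to 0.192 for Apoe, -0.084 to 0.021 for Srebf1, -0.296 to 0.043 for Pltp and -0.074 to 0.028 for Lpcat3. The cause was not tested.

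Replicate numbers were not taken to pair the samples: of 45 pairs of conditions and numbers, 2 had a correlation of deviations over 0.1, with a highest value of 0.143. Of 18 libraries, 11 were closest to their own number, and how many would be without pairing was not tested. With the replicate block in the fit, Abca1 with TBHQ had 0.001, and Abcg1 in PIC+TBHQ against PIC passed at an adjusted p of 0.0431 (0.0666 without the block, range 0.00456 to 0.362).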
